A study of Mus musculus with 12 samples.

Results

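Immunoglobulin light chain V genes, the Igkv genes of the kappa locus and the Iglv genes of the lambda locus, were followed through the ileal and colonic mucosa of control and Slc39a8-IEC KO mice. The members were chosen by symbol and detection alone: a gene had to carry a symbol beginning with Igkv or Iglv and at least 1 count in any library. This gave 102 genes, 99 kappa and 3 lambda, out of 53715 genes in the count table. The table lists 163 light chain V genes in all, and the other 61 had no count in any of the 12 libraries. In the GENCODE annotation, 97 of the members are V genes and 5 are V pseudogenes.

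A light chain is assembled in each developing B cell by joining 1 V segment to 1 J segment, and the joined exon is then spliced to a constant exon. A mature B cell expresses a kappa or a lambda chain, almost never both, so the V segments seen in RNA are a census of the B lineage cells that made it, weighted by how much light chain mRNA each cell holds. In the gut lamina propria most of this RNA comes from plasma cells, which secrete dimeric IgA joined by the J chain (Jchain) and carry far more immunoglobulin mRNA than resting B cells. Mice use kappa much more than lambda, and their lambda locus has very few V genes: Iglv1, which is usually joined to the constant genes Iglc1 or Iglc3, Iglv2, which is usually joined to Iglc2, and Iglv3.

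RNA was taken from the mucosa of 8-week-old male C57BL/6J mice, with 3 control and 3 KO libraries for each tissue, each from the mucosa of 1 mouse. The labels give the control genotype as Slc39a8-fl/fl and the KO genotype as Slc39a8-fl/fl:Villin-Cre, so both carry the floxed alleles of Slc39a8, which encodes a manganese transporter. The methods of the study describe its controls as a mix of floxed, wild-type and Villin-Cre animals. The Villin promoter is active in intestinal epithelium, and it is not a promoter of B lineage cells. Whether an ileal and a colonic library came from the same mouse is not given in the labels. cDNA was primed with oligo-dT from whole mucosa. In such bulk RNA, fewer plasma cells and less light chain mRNA per plasma cell cannot be told apart.

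Library totals ran from 16749138 to 27903083 expected counts. Slc39a8 was lower in each KO library than in each control library of its tissue, at 2.62 to 4.35 against 5.22 to 8.38 CPM in ileum and 7.34 to 11.5 against 20.0 to 20.8 CPM in colon (CPM, counts per 1000000 counts of the scaled library). Over both tissues its log2 fold change was -1.13 (SE 0.17, adjusted p = 0.382 in edgeR's quasi-likelihood test), so the targeted gene itself did not pass the threshold of 0.1. Among ileal libraries, control 3 and KO 1 stood apart. The 6 smooth muscle genes summed to 34.1 and 20.1 CPM there against 1813 to 2641 CPM in the other ileal libraries, and the 12 B cell genes summed to 68.9 and 82.3 CPM against 6.18 to 12.02 CPM. Results that rest on these libraries are given with and without them.

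The germline sequences show how closely some members resemble each other, which bears on how reads were assigned between them. All are read from GENCODE M21 transcripts (GRCm38/mm10), 5′ to 3′ on the coding strand, and each is the 3′ part of the V exon, up to 300 bases. The lambda pair is shown because Iglv1 led most libraries and Iglv2 differs from it at 8 of the 300 bases printed (97.3% identity), each marked by a capital. Iglv1 lies at chr16:19085017-19085316 and Iglv2 at chr16:19260401-19260700, both on the minus strand.
Iglv1: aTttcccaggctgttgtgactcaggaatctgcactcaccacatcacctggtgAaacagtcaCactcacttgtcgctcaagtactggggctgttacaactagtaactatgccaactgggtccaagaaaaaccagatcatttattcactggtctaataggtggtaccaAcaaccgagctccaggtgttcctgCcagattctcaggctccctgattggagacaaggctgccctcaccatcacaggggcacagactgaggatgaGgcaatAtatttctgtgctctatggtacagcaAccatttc
Iglv2: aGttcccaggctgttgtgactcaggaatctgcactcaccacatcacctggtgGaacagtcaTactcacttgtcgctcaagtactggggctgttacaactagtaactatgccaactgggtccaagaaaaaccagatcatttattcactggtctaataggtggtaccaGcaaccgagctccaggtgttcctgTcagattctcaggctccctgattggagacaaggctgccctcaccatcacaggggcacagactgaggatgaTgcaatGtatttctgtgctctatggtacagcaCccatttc
Igkv1-117 (chr6:68121528-68121827, plus strand) and Igkv1-110 (chr6:68270968-68271267, plus strand) are shown because the former led ileum control 3 and colon KO 3 and the latter ileum KO 1, and capitals mark the 10 bases at which they differ (96.7% identity).
Igkv1-117: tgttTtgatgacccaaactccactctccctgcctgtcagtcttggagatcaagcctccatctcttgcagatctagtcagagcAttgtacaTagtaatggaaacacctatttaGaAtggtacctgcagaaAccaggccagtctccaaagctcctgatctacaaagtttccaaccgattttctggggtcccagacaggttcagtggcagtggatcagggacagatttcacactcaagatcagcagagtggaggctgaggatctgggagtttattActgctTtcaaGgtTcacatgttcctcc
Igkv1-110: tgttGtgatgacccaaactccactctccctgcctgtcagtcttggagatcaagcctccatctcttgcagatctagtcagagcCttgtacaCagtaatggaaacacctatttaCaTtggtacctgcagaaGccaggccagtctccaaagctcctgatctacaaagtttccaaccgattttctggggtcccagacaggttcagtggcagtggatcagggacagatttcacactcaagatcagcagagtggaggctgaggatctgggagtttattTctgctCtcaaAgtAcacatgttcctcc
Igkv3-5 (chr6:70663596-70663895, plus strand) had the smallest p in a genotype comparison, and its nearest relative Igkv3-10 (chr6:70572931-70573230, plus strand) differs from it at the 6 bases in capitals (98.0% identity).
Igkv3-5: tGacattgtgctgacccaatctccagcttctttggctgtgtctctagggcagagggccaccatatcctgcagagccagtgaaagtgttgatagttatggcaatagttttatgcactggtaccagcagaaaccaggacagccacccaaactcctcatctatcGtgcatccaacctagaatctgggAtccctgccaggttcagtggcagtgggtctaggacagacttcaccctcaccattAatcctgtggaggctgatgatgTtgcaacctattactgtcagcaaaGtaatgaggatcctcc
Igkv3-10: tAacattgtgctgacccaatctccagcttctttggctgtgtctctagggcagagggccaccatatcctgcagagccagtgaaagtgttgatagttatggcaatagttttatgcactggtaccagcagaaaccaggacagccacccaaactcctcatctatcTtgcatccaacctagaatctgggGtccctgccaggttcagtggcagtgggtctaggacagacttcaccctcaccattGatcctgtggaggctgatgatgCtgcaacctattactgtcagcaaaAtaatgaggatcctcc
Igkv6-23 (chr6:70260409-70260706, minus strand) led 1 ileal KO library and Igkv3-4 (chr6:70672078-70672377, plus strand) was the second segment of 1 colonic KO library while nearly absent elsewhere. Here the capitals mark the last 26 bases, from the codon of the conserved cysteine to the end of the exon, the germline start of the third complementarity determining region.
Igkv6-23: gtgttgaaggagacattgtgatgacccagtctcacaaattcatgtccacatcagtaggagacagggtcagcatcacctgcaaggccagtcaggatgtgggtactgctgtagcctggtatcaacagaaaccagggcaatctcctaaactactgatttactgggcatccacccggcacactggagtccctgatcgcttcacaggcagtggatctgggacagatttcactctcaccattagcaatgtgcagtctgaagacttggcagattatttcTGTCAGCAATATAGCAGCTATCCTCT
Igkv3-4: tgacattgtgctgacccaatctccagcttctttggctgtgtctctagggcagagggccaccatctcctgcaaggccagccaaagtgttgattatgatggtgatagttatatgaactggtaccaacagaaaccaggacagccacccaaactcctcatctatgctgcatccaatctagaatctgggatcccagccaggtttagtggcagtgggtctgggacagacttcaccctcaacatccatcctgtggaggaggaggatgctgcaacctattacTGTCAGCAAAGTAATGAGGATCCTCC

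Over whole V exons, 41 of the 102 members share no window of 75 bases with the transcripts of any other gene, the median member shares 4.75% of its windows and 8 members share more than 50%. Iglv1 and Iglv2 share 13.0% of their windows, Igkv1-110 and Igkv1-117 29.7%, Igkv3-5 36.0%, and Igkv4-59 54.6%. Values of single genes with a close relative are therefore uncertain, while sums over the members are not touched by reads exchanged between members.

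Light chain V transcripts were more abundant in ileum than in colon. In control ileum their summed level was 191.5, 230.4 and 73.3 CPM, a mean of 165 ± 81.8 (SD, n = 3), and in control colon it was 31.1, 54.9 and 33.9 CPM, a mean of 40.0 ± 13.0 (SD, n = 3). Every control colon library lay below every control ileum library, and the mean was 0.242 times that of ileum. In the KO mice the ileal libraries reached 58.1, 414 and 548 CPM (340 ± 253, SD, n = 3) and the colonic ones 46.65, 56.5 and 162 CPM (88.4 ± 63.95, SD, n = 3). These 2 groups overlapped, because ileal KO 1, one of the libraries with few muscle transcripts, was as low as the colonic libraries.

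As a share of all counts, the members made up between 0.00303% (colon control 1) and 0.0488% (ileum KO 3) of a library, from 608 to 11584 counts. Ileal KO and control libraries overlapped in summed V level, and so did colonic ones. Without the pair of ileal libraries that stood apart, the ileal means were 211 CPM in control mice and 481 CPM in KO mice, with 2 libraries each. The constant gene Igkc ran from 67.4 CPM in colon control 3 to 1075 CPM in ileum KO 3, and the heavy chain gene of IgA, Igha, from 83.7 to 1847 CPM in the same libraries. Igkc did not follow the V sums in every library. It was at 780.8 CPM in ileum control 2, where the V sum was 230.4 CPM, and at 754.4 CPM in ileum KO 2, where the V sum was 414 CPM. The 13 plasma cell genes summed to 745 to 903 CPM in control colon and to 1136 to 2763 CPM in control ileum. In KO colon they summed to 926, 985 and 1412 CPM, above every control colon library, and in KO ileum to 1153 to 3454 CPM. Of these genes, Sdc1, Txndc5, Xbp1, Fkbp11 and Tnfrsf17 did not overlap between the colonic genotypes, and the others did. Igha, Jchain, Mzb1, Derl3 and Irf4 were among those that overlapped. Among all genes, 6.98% were higher in KO colon without overlap. In control colon the sum drew mostly on Sdc1, Txndc5 and Xbp1. In control and KO colon, Sdc1 was at 259.3 to 269.6 and 280.4 to 332.7 CPM. Txndc5 was at 129.0 to 158.8 and 177.3 to 203.9 CPM. Tnfrsf17 was low, at 0.329 to 0.384 and 0.471 to 0.913 CPM. Jchain was at 150.5 to 210.7 CPM in control colon and 159.4 to 318.9 CPM in KO colon. Igha was at 83.7 to 128.7 CPM and 128.0 to 425.4 CPM, and Prdm1 at 5.13 to 14.1 CPM and 5.65 to 6.83 CPM. Igkc was at 67.4 to 87.4 CPM in control colon and 116 to 332 CPM in KO colon, without overlap. The part of these genes in the tissue and genotype differences of the V genes was not tested.

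**Figure D1:**
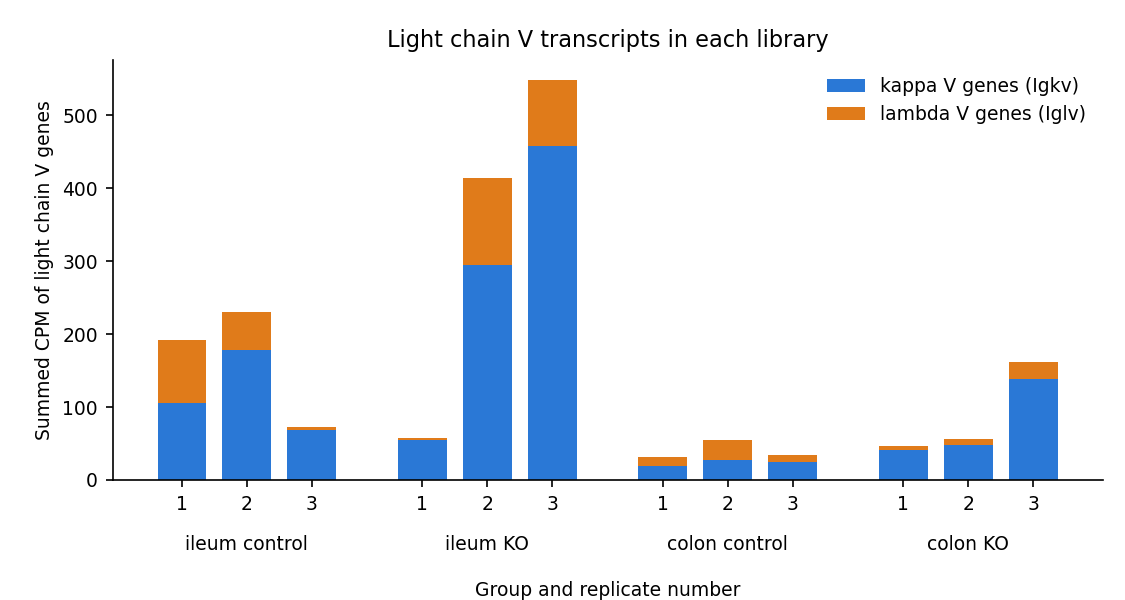
Summed CPM (on the TMM-scaled library size) of kappa V genes (blue) and lambda V genes (orange) stacked in each of the 12 libraries, named by group and replicate number. Ileum KO 2 and 3 are the tallest bars at 414 and 548 CPM, the control colon bars lie at 31.1 to 54.9 CPM, and ileum control 3 and ileum KO 1 are short and almost wholly kappa.

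Separating the isotypes, the genotypes did not overlap in colon for kappa and did overlap for lambda. Kappa V transcripts reached 18.6, 27.7 and 24.5 CPM in control colon and 40.5, 47.7 and 138.9 CPM in KO colon. No KO library was below any control library, and the KO mean was 3.21 times the control mean. The highest, KO 3, stood well above the other KO libraries, and without it the KO mean was 44.1 CPM, 1.87 times the control mean. Lambda V transcripts were at 12.5, 27.3 and 9.41 CPM in control colon and at 6.12, 8.80 and 23.1 CPM in KO colon, ranges that overlap (ratio of means 0.774). In ileum, kappa spanned 68.9 to 178.8 CPM in control mice and 55.2 to 458 CPM in KO mice, and lambda 4.46 to 86.6 and 2.86 to 120 CPM, ranges that overlap. That overlap rested on the pair of libraries that stood apart. Without them kappa was at 104.9 and 178.8 CPM in control ileum and 294.2 and 457.6 CPM in KO ileum (means 141.9 and 375.9), and lambda at 86.6 and 51.6 against 120.0 and 90.7 CPM (means 69.1 and 105.3). On these 2 libraries a group, both isotypes were higher in each KO library than in each control library. The kappa constant gene Igkc overlapped in them, at 287.5 and 780.8 CPM in control ileum and 754.4 and 1075 CPM in KO ileum. Kappa V counts per 100 Igkc counts were 22.9 in ileum control 2, against 36.5 in ileum control 1 and 39.0 and 42.6 in ileum KO 2 and 3.

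The lambda share of light chain V counts ran 4.92% to 49.7% over the 12 libraries. It was highest in control colon, at 40.1% (exact binomial 95% interval 36.2 to 44.15), 49.7% (46.7 to 52.6) and 27.7% (24.5 to 31.2), a mean of 39.2 ± 10.99% (SD, n = 3). In KO colon it was 13.1% (11.1 to 15.4), 15.6% (13.5 to 17.9) and 14.3% (13.2 to 15.4), a mean of 14.3 ± 1.23% (SD, n = 3). Each KO colon library was below each control colon library, and the KO mean was 0.366 times the control mean. The 3 KO values lay close together. These intervals cover counting error only, and the share, a sum over the members, was described without a test.

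In ileum the same share did not separate the genotypes. Control libraries were at 45.2%, 22.4% and 6.08% (24.6 ± 19.7%, SD, n = 3) and KO libraries at 4.92%, 29.0% and 16.5% (16.8 ± 12.03%, SD, n = 3). The lowest value of each genotype came from the library with few muscle transcripts and high B cell genes. Without those libraries the means were 33.8% in control mice and 22.8% in KO mice, with 2 libraries each.

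Constant gene counts gave a lower lambda share in 10 of the 12 libraries, the exceptions being ileum control 3 and ileum KO 1, and they too separated the genotypes in colon. Counted as Iglc1, Iglc2 and Iglc3 (no count was found for Iglc4) against Igkc, lambda made up 25.7%, 33.2% and 15.5% in control colon and 7.73%, 8.98% and 8.48% in KO colon, again without overlap. In ileum it was 20.1%, 8.39% and 6.997% in control mice and 6.59%, 13.6% and 7.74% in KO mice. The V and constant measures differ in how many reads a transcript yields to each: kappa V counts were 22.9 to 46.2 per 100 Igkc counts, while lambda V counts were 26.2 to 119.8 per 100 lambda constant counts.

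**Figure D2:**
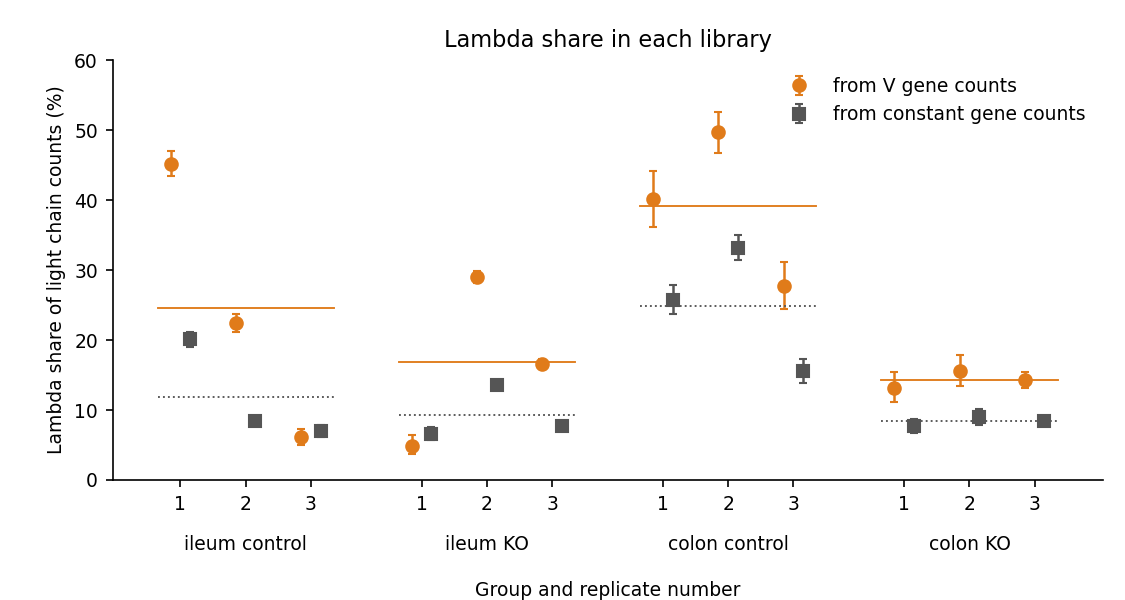
Lambda share in percent in each of the 12 libraries, from V gene counts (orange circles) and from constant gene counts (grey squares), with exact binomial 95% intervals as bars and group means as lines (solid for V, dotted for constant genes). By both measures the 3 KO colon libraries lie below the 3 control colon libraries, whereas the ileal groups overlap.

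Nearly all lambda counts were Iglv1. It held 79.05% to 99.5% of lambda V counts in the 12 libraries, with 1296, 916 and 83 counts in control ileum, 42, 3060 and 1824 in KO ileum, 238, 537 and 195 in control colon and 115, 153 and 478 in KO colon. The libraries with few muscle transcripts again stood apart, with the fewest Iglv1 counts of all. Iglv2 had 3 to 77 counts per library. It made up 20.0% and 10.4% of lambda counts in ileum control 3 and ileum KO 1, 0.163% to 4.02% in the other ileal libraries, 1.23% to 5.45% in control colon and 7.65% to 11.8% in KO colon. The colonic genotypes did not overlap in this share, which rests on 3, 31 and 4 counts of Iglv2 in control mice and 13, 13 and 66 in KO mice. Iglv3 had 1 to 15 counts in every library and was too low to be tested.

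The constant genes beside Iglv1 differed between libraries. In ileum control 1, Iglv1 was at 86.2 CPM with Iglc1 at 59.5 and Iglc3 at 1.995 CPM. In colon control 2, Iglv1 was at 25.7 CPM with Iglc1 at only 4.27 CPM and Iglc3 at 30.1 CPM, where the other 11 libraries had Iglc3 at 0.517 to 5.77 CPM. That library also had the highest lambda share, 49.7%. Iglc2 and Iglc3 are 94.5% identical in sequence and Iglc1 is 67.8% and 68.1% identical to them, so counts of Iglc2 and Iglc3 are the less certain.

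Single segments dominated many libraries, and Iglv1 did so most often, leading 8 of 12. It made up 45.0% and 22.1% of V counts in ileum control 1 and 2, 28.85% in ileum KO 2, 39.1%, 46.9% and 27.05% in the 3 control colon libraries and 11.6% and 14.0% in colon KO 1 and 2. Igkv1-117 led ileum control 3 at 24.15% and colon KO 3 at 22.45%. Its near relative Igkv1-110 led ileum KO 1 at 25.7%, and Igkv6-23 led ileum KO 3 at 16.4%. All 3 control colon libraries were thus led by the same lambda segment. In control ileum and KO colon it led replicates 1 and 2 but not replicate 3. In KO ileum each library had a different leading segment.

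The leading segment held 37.7 ± 9.985% of V counts in control colon and 16.0 ± 5.70% in KO colon (SD, n = 3), without overlap, the lowest control value being 27.05% and the highest KO value 22.45%. In ileum it held 30.4 ± 12.7% in control and 23.7 ± 6.49% in KO mice (SD, n = 3), with overlap, and 33.5% and 22.6% without the libraries that stood apart. The effective number of segments, the inverse Simpson index, counts how many equally common segments would give the same dominance. It was 5.84, 4.12 and 8.15 in control colon and 20.05, 15.4 and 12.35 in KO colon, and 4.61, 13.1 and 9.65 in control ileum against 10.8, 9.115 and 13.4 in KO ileum. Without the libraries that stood apart, the ileal means were 8.85 in control and 11.3 in KO mice. Among kappa segments alone the colonic groups overlapped, at 19.8, 11.2 and 10.6 in control mice and 20.8, 15.85 and 11.2 in KO mice.

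Depth bears on these counts of segments. Between 51 and 84 members had a count in a library, all 3 control colon libraries having fewer (51, 54 and 55) than the KO colon libraries (58, 64 and 79). A control colon library held 608, 1146 or 721 V counts, so a segment with no count there could still hold up to 0.493%, 0.262% or 0.416% of V counts (3 counts of the total). The part of depth in the numbers of segments was not tested. The leading segment had 115 counts or more in every library.

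**Figure D3:**
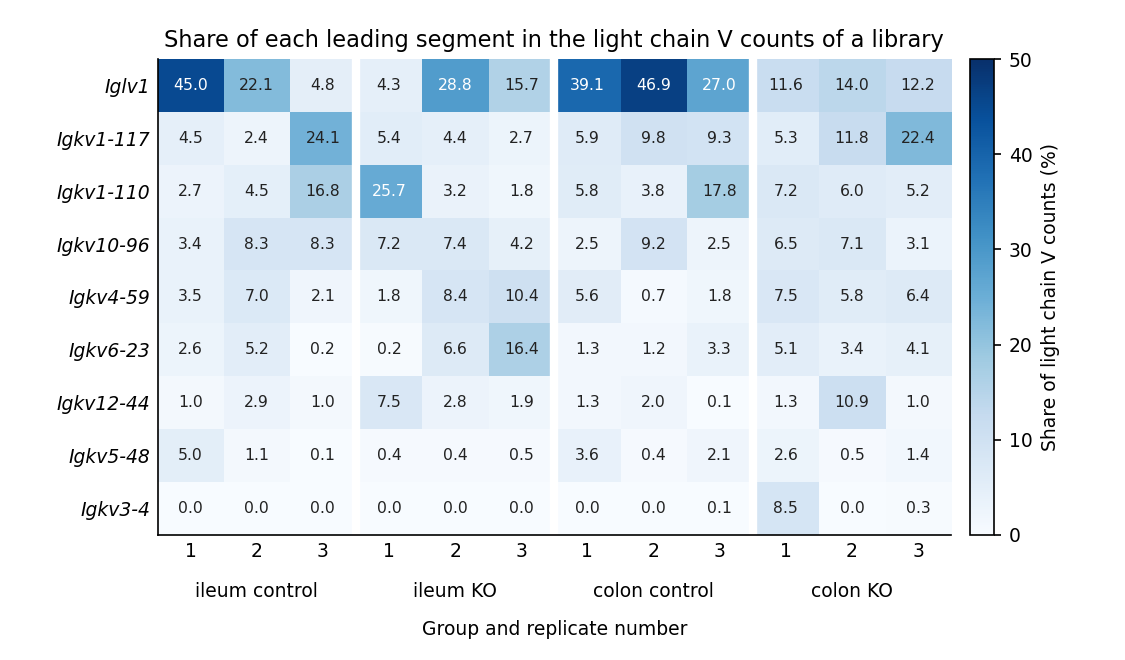
Share of light chain V counts, in percent and by colour from 0 to 50%, of the 9 segments that were first or second in any library or among the 5 highest means of any group, in 12 libraries. Iglv1 fills the control colon columns at 27.05% to 46.9%, Igkv1-117 and Igkv1-110 stand out in ileum control 3, ileum KO 1, colon control 3 and colon KO 3, and Igkv3-4 appears at 8.48% in colon KO 1 and at 0.256% or less in the other libraries.

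**Figure D4:**
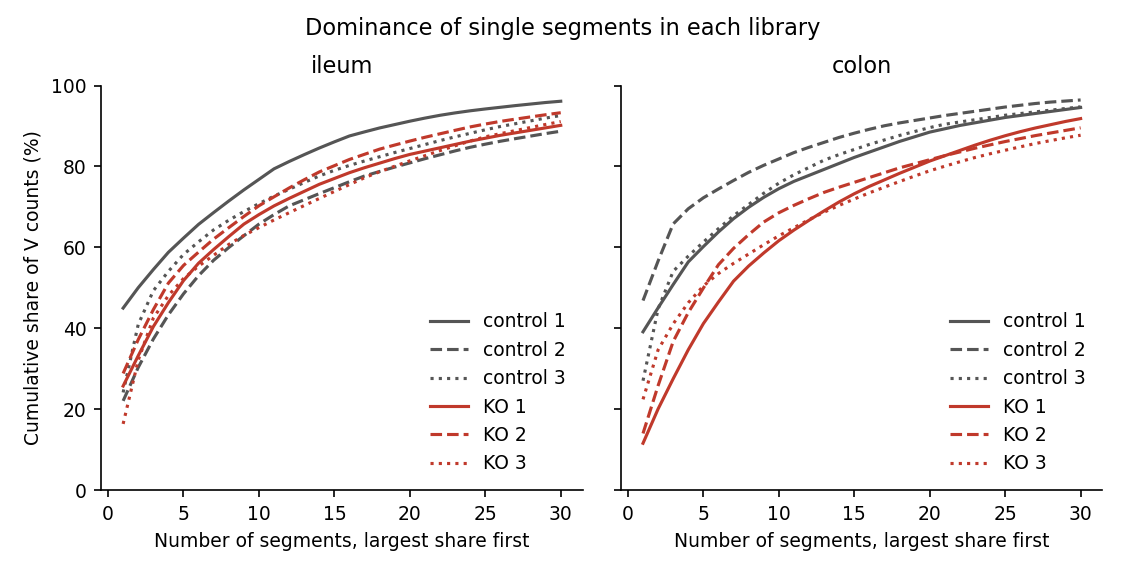
Cumulative share of V counts in percent against the number of segments taken from the largest share downwards, up to 30, for control (grey) and KO (red) libraries of ileum (left) and colon (right), with line style giving the replicate. After 5 segments the KO colon lines are at 41.2% to 50.5% and the control colon lines at 60.2% to 72.25%, while the ileal lines of both genotypes mix between 48.5% and 62.3%.

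Among kappa segments, Igkv1-117, Igkv1-110, Igkv10-96 and Igkv4-59 recurred among the 5 highest mean shares. Igkv1-110, Igkv10-96 and Igkv4-59 were in the first 5 of all 4 groups, Igkv1-117 was in all but KO ileum, and Igkv6-23 took its place there. The share of Igkv10-96 stayed between 2.47% and 9.16% in the 12 libraries. Igkv1-110 ranged from 1.78% (ileum KO 3) to 25.7% (ileum KO 1). Igkv4-59 ranged from 0.698% (colon control 2) to 10.4% (ileum KO 3), and Igkv6-23 from 0.174% (ileum control 3) to 16.4% (ileum KO 3). In all, 5 segments together made up 50% of the share averaged over all libraries.

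Some segments were prominent in 1 or 2 libraries, and 3 of them are named here because of that, after their values were seen. Igkv3-4 had 84 counts in colon KO 1, 8.48% of V counts there, and 10, 5, 2 and 1 counts in colon KO 3, ileum KO 2, ileum KO 3 and colon control 3, with none in the other 7 libraries. Igkv12-44 held 10.9% of V counts in colon KO 2, behind Iglv1 at 14.0% and Igkv1-117 at 11.8%. It was the second segment of ileum KO 1 at 7.49%, and held 0.139% to 2.915% elsewhere. Igkv5-48 was second in ileum control 1 at 5.035% with 145 counts and had 1 count in ileum control 3. In all, 56 members exceeded 1% of V counts in some library, 12 exceeded 5% and 6 exceeded 10%. At the other end, 11 members had counts in 1 library only and 24 had fewer than 10 counts over all 12 libraries. The 5 pseudogenes had 8 counts together out of 40389, or 0.0198%, led by Igkv3-11 with 3 counts in 2 libraries.

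By family, the 8 Igkv1 genes held 6.76% (ileum KO 3) to 43.6% (ileum control 3) of V counts and the 29 Igkv4 genes 3.05% (colon control 2) to 18.1% (ileum KO 3). Igkv6, with 9 genes, ranged from 3.90% (ileum KO 1) to 24.99% (ileum KO 3). The Igkv locus spans chr6:67555497-70704177, with 37 members on the plus strand and 62 on the minus strand. Igkv segments more than 2 Mb from Igkj1, the first J gene, were 28 of the 99 and held 26.9% to 68.4% of kappa counts, with the highest values in ileum control 3 (68.4%), colon control 2 (67.8%) and ileum KO 1 (60.1%). Segments within 1 Mb of Igkj1 held 18.7% to 49.5%. Both ranges overlapped between genotypes in each tissue. The Iglv members lie at chr16:19085017-19260859.

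For the tests on single genes, 55 of the 102 members passed the filter on low counts, among them Iglv1 and Iglv2. They held 96.7% of the V counts. A member that passed only through the group in which it was high had to differ, so the counts that follow describe the 55 and support nothing further.

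The genotype comparisons asked whether loss of epithelial Slc39a8 changed these genes. When both tissues were fitted together with a tissue term, 0 of the 55 members passed an adjusted p of 0.1 in edgeR, against a background of 0% of the 16558 genes tested, and DESeq2 called 0 of the 97 members it tested and limma-voom 0 of 55, with 4 and 1 calls among all genes. At an unadjusted p under 0.05, 15 members were higher in KO mice and 0 lower, where 1.69% of all genes were higher at that level. The fitted fold change was above 0 for 51 of the 55 members, with a median of 1.22 on the log2 scale against 0.0018 for all genes. The 15 became 26 without ileum control 2, 27 without ileum KO 1, 7 without ileum KO 3 and 10 without colon KO 3. These are counts in either direction, of 60 to 62 members then tested. Of all genes, 642 of 16558 were under 0.05 in either direction in the full fit. In those runs the genes were 1012 of 17030, 660 of 17026, 501 of 17036 and 457 of 16951. The smallest p belonged to Igkv3-5, at 1, 6 and 4 counts in control ileum, 4, 47 and 17 in KO ileum, 0, 2 and 1 in control colon and 3, 17 and 27 in KO colon. Its log2 fold change was 2.85 (SE 0.69, adjusted p = 0.998 in edgeR), and the counts of the ileal groups overlapped. The lambda gene Iglv1 was at 0.05 (SE 0.78, adjusted p = 0.998 in edgeR) and Iglv2 at 1.35 (SE 0.81, adjusted p = 0.998 in edgeR). The sign for Iglv1 was not stable, since it ran from -0.30 to 0.35 when each library was left out in turn.

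Within ileum, edgeR called 0 of 55 members (background 0%), DESeq2 0 of 101 and limma-voom 0 of 55, while of all genes DESeq2 called 2 and limma-voom 1. In edgeR 3 members had an unadjusted p under 0.05, all higher in KO mice, against 0.846% of all genes. The median log2 fold change was 1.11, but it was 0.47 without ileum KO 3 and 1.97 without ileum control 2. The 3 members under 0.05 became 17 without ileum control 2, 15 without ileum KO 1, and 5 without ileum KO 2 or colon KO 3. All genes under 0.05 in either direction were 252 of 16558 in the full fit. In those runs they were 757 of 17030, 397 of 17026, 384 of 17067 and 215 of 16951. Igkv8-24 had the smallest p, with 2, 2 and 12 counts in control mice and 8, 136 and 49 in KO mice, a log2 fold change of 3.33 (SE 0.93, adjusted p = 1 in edgeR). In no member were all ileal KO libraries above or below all ileal controls, where 2.13% of all genes were higher without overlap.

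Within colon, edgeR called 0 of 55 members (background 0%), DESeq2 0 of 101 and limma-voom 0 of 55. In edgeR 9 members had an unadjusted p under 0.05, all higher in KO mice, against 0.966% of all genes. The median log2 fold change was 1.76, or 1.71 with the 3 members absent from control colon set at a floor of 3 counts over that group. Without colon KO 3 the median was 0.73 and 4 members were under 0.05, and without colon control 1 there were 5. All genes under 0.05 in either direction were 385 of 16558 in the full fit. In those runs they were 230 of 16951 and 268 of 17034. Igkv3-5 was again first, with a log2 fold change of 3.73 (SE 1.10, adjusted p = 1 in edgeR). In 11 of the 55 members all 3 KO libraries lay above all 3 controls, and in 0 below, where 6.98% of all genes were higher without overlap. Igkv6-23, one of them, was at 0.409, 0.671 and 1.13 CPM in control colon and 2.40, 1.92 and 6.72 CPM in KO colon. Igkv4-59, another, was at 1.74, 0.384 and 0.612 CPM against 3.48, 3.26 and 10.4 CPM. Igkv3-5, Igkv6-20, Igkv8-21 and Igkv17-127 were also among the 11, each with 7 counts or fewer in any control colon library.

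For whether the genotype effect differed between tissues, edgeR called 0 of 55 members (background 0%), DESeq2 0 of 101, with 1 call among all genes, and limma-voom 0 of 55. In edgeR 1 member had an unadjusted p under 0.05. This was Igkv6-20, at 42, 8 and 9 counts in control ileum, 6, 19 and 15 in KO ileum, 4, 7 and 6 in control colon and 30, 25 and 22 in KO colon. The effect in colon exceeded that in ileum by 3.05 on the log2 scale (SE 1.0, adjusted p = 1 in edgeR). Its exon shares 45.5% of its windows with Igkv6-29, which had 1 count in all. Without the ileal libraries that stood apart, edgeR called 0 of 57 members in any of the 4 genotype comparisons, and 27 members over both tissues, 14 in ileum, 18 in colon and 3 for the difference had an unadjusted p under 0.05 in either direction, against 9.80%, 4.98%, 5.54% and 2.46% of all genes.

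Between tissues, the called members were all lower in colon. In control mice, edgeR called 18 of the 55 members lower in colon and 0 higher, where 19.6% of all genes were lower. The median log2 fold change of the 55 was -2.28, and the same with the 3 members absent from control colon set at their floor. Igkv1-110 was at 5.25, 10.4 and 12.3 CPM in control ileum and 1.79, 2.06 and 6.02 CPM in control colon. These ranges overlap, and its log2 fold change was -1.50 (SE 0.52, adjusted p = 0.0513 in edgeR). Igkv8-21 had 49, 61 and 6 counts in control ileum and 2, 1 and 0 in control colon, a ratio of pooled CPM of 42.1 with a 95% counting interval of 14.1 to 207. Igkv17-127 had 17, 158 and 3 counts against 3, 3 and 1, a ratio of 27.7 (13.17 to 69.9). The intervals of these pooled ratios, here and for KO mice below, cover counting error only and leave out the spread between mice.

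The 3 most negative fitted values in control mice belonged to segments with no count in control colon, so only a bound can be given. Igkv13-85 had 1, 59 and 1 counts in control ileum and was at least 22.15-fold lower in colon (adjusted p = 0.0629 in edgeR), Igkv3-10 had 1, 32 and 3 and was at least 13.1-fold lower (adjusted p = 0.0994 in edgeR), and Igkv4-63 had 2, 24 and 4 and was at least 10.9-fold lower (adjusted p = 0.0757 in edgeR). The floor is 3 counts over the group. In each of them 1 library, ileum control 2, held most of the counts. Igkv13-85 shares 53.1% of its windows with another gene, and Igkv3-10 42.8%. Without ileum control 2 the called members in control mice were 4 instead of 18, 6.67% of members where 17.3% of all genes were lower. Without colon control 1, 2 or 3 they were 6, 9 and 7, or 9.52%, 14.3% and 11.1% of members. Of all genes 15.9%, 15.1% and 15.9% were lower there. In each of these runs the share of members was thus below that of all genes. Without ileum control 3 and ileum KO 1, 35 of 57 were called lower, where 22.0% of all genes were.

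In KO mice, edgeR called 16 of 55 members lower in colon and 0 higher, where 20.0% of all genes were lower, and the median log2 fold change was -1.74. Igkv4-57-1 had 0, 15 and 139 counts in KO ileum and 2, 0 and 3 in KO colon, a ratio of pooled CPM of 31.4 (13.15 to 97.95), and most of its ileal counts came from KO 3. Igkv17-127 had 4, 231 and 146 counts against 5, 7 and 8 (ratio 19.4, 12.4 to 32.1), and Igkv8-21 5, 163 and 647 against 3, 34 and 20 (ratio 14.6, 11.1 to 19.4). For these 3 genes the ileal and colonic levels overlapped through ileum KO 1. Without ileum KO 2 or 3 the called members were 6 and 4 instead of 16, or 9.68% and 6.56%, where 17.3% and 16.0% of all genes were lower. Without colon KO 1 or 2 they were 3 and 4, or 4.76% and 6.45%, where 15.5% and 14.1% of all genes were. The share of members was below that of all genes in these runs too. Without the ileal libraries that stood apart, 31 of 57 were called lower, where 21.7% of all genes were.

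In both tissue comparisons, 7 members were called, 38.9% of the 18 and 43.75% of the 16. They were 7 of the 55 tested, where 16.6% of all genes were called lower in both. The lists of all genes shared a larger part. Of the 3251 genes called lower in control mice and the 3312 in KO mice, 2746 were in both lists. The comparisons share no libraries, but they share a common estimate of the spread. The 7 are labelled in the plot of tissue differences because they passed both tests. Igkv1-110, Igkv8-21 and Igkv17-127 were among them, and Igkv10-96, at 0.767 to 5.03 CPM in the 6 colonic libraries and 4.17 to 30.6 CPM in the 6 ileal libraries, was another. The leading segment Iglv1 was not called in control mice, where its log2 fold change was -1.57 (SE 1.14, adjusted p = 0.331 in edgeR), nor in KO mice, where it was -2.65 (SE 1.18, adjusted p = 0.116 in edgeR). Without the ileal libraries that stood apart it was called in both, at -2.15 (SE 0.50, adjusted p = 0.00577 in edgeR) and -3.20 (SE 0.51, adjusted p = 0.000503 in edgeR). Whether the tissue difference itself differed between segments was not tested.

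**Figure D5:**
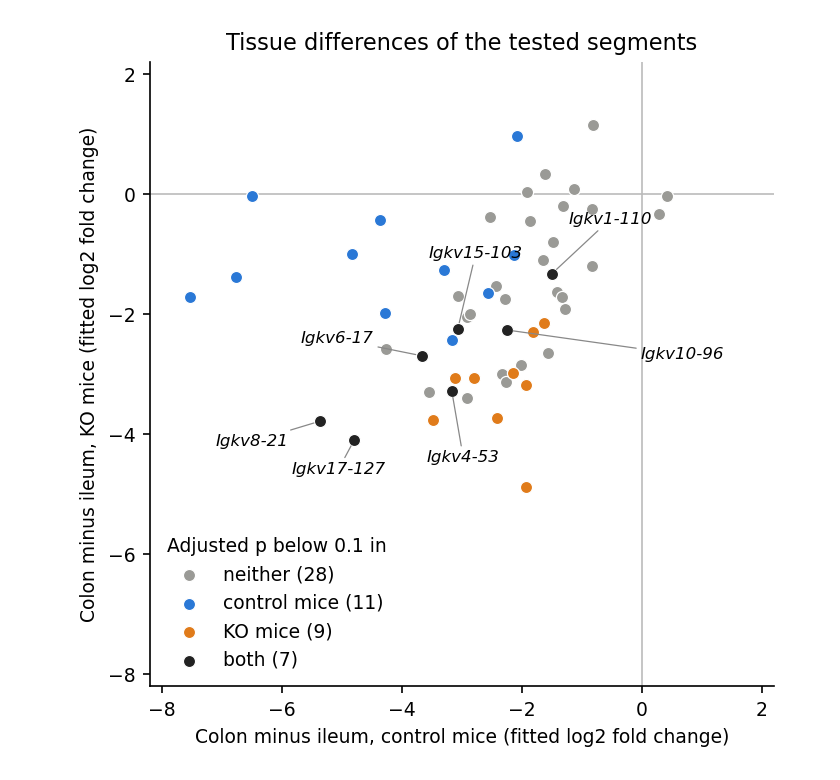
Fitted log2 fold change of colon against ileum in control mice (horizontal) and in KO mice (vertical) for the 55 tested members, coloured by the comparison in which the adjusted p was below 0.1 (black both, blue control mice, orange KO mice, grey neither). Every coloured point lies below 0 in the comparison that called it, and the 3 points farthest left are segments with no count in control colon, whose fitted value depends on the prior count.

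Other genes of the antibody pathway were lower in colon as well, and so were genes of other cell types. Of 6 T cell genes, 6 were called lower in control and 5 in KO mice (median log2 fold changes -2.02 and -1.69), and of 6 epithelial genes 5 were called lower in each (medians -0.89 and -0.96). Igkc was called lower in colon in control mice, at -2.45 (SE 0.73, adjusted p = 0.0273 in edgeR), and in KO mice, at -1.80 (SE 0.71, adjusted p = 0.0812 in edgeR), and so was Igha, at -2.69 and -2.13. Of the 13 plasma cell genes, 10 were called lower in colon in control mice, among them Derl3 and Mzb1, which serve protein folding and secretion, and the transcription factors Irf4, Prdm1 and Xbp1, and 7 in KO mice. Of the 12 B cell genes, 10 were tested and 3 were called lower in each genotype, among them Cd79b of the B cell receptor. In the genotype comparisons none of the plasma cell, B cell or constant genes was called by edgeR, and Igkc was at 1.03 over both tissues (SE 0.48, adjusted p = 0.998 in edgeR), with 2 of 13 plasma cell genes, 0 of 10 B cell genes and 0 of 4 constant genes at an unadjusted p under 0.05 over both tissues. Within colon, Iglc3 had an unadjusted p of 0.0257 and was lower in KO mice, at -2.93 (SE 1.14, adjusted p = 1 in edgeR), opposite in sign to Igkc at 1.35 (SE 0.71, adjusted p = 1 in edgeR). The Iglc3 difference rested on colon control 2, whose 30.1 CPM was the highest of all libraries. Colon control 1 and 3 were at 1.38 and 0.517 CPM, and the KO colon libraries at 1.22, 1.55 and 1.41 CPM. The 9 light chain J genes had no count in any library. Of the 7 genes of the surrogate light chain and of recombination, which mark B cell precursors, 5 had a count and 0 passed the filter, and their summed level was at most 1.91 CPM.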

How the data were processed

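Ileal and colonic mucosa of control and Slc39a8-IEC KO mice was sequenced as RNA in 12 libraries, grouped by the sample labels into 4 groups of 3. The authors deposited expected counts per gene, that is, read estimates without normalization, which may be fractional (99.5% of the members' values were whole). STAR and mm10 are named in the submitters' processing notes. The reporting summary of the study names unique mapping, UMI-tools and FeatureCounts, while the estimator's name is not given in the sources, so the gene to which a read of several near-identical V genes was assigned is not known. Light chain V exons of rearranged, somatically mutated transcripts align to germline genes only in part, which can lower V counts against constant gene counts.

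Counts were rounded to whole numbers, and 92 spike-in lines, all at 0, were left out. With edgeR 4.0.16 in R 4.3.3, filterByExpr kept 16558 genes, TMM factors scaled the libraries, and glmQLFTest p-values received the Benjamini-Hochberg adjustment across all of them, a call needing an adjusted p below 0.1. Genotype over both tissues had tissue as a term, and the other contrasts came from a model of the 4 groups. DESeq2 1.42.0 and limma-voom (limma 3.58.1) were alternatives, as were other scalings, filters and thresholds, the replicate number as a block and each library left out. The labels name 1 mouse per library, so p-values measure the spread between mice, and models over both tissues take libraries as independent. Summed levels, shares and the inverse Simpson index were described without tests. Intervals are exact binomial. The fits were tested on simulated data.

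Of 53715 gene identifiers, 53620 matched GENCODE M21 (GRCm38/mm10) without their version. Exon sequences and coordinates came from there. The members, lists and alternatives were chosen with earlier results of these data known. Named by rule were the Iglv genes, the leading segment of each library, the 5 highest mean shares per group, the smallest p of each genotype comparison, the 3 most extreme called members per tissue comparison, the leading pseudogene and near-identical partners. Depth per library was 16749138 to 27903083 counts, of which 608 to 11584 were in the members. Figures were drawn with matplotlib 3.10.9.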

Additional observations from a re-analysis of the deposited data

How the results depend on the processing

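In the genotype comparisons 0 members were called under every alternative run. The tissue counts were less stable. The called members were lower in colon under every alternative except in KO mice, where 1 member was higher with no filter on low counts and 1 without ileum control 1. The 18 and 16 calls were 32.7% and 29.1% of the 55 tested members. In control mice the 18 called members became 7 at an adjusted p of 0.05, 4 with limma-voom and 35 without the 2 ileal libraries with few muscle transcripts, and 4 to 26 when each library was left out in turn. In KO mice the 16 became 4 at 0.05, 5 with limma-voom, 9 with library size only, which shifts the median of all genes to 0.285 on the log2 scale, 9 with the replicate number as a block and 31 without those ileal libraries, and 3 to 24 when each library was left out. As shares, an adjusted p of 0.05 called 12.7% and 7.27% of members lower, where 15.8% and 15.8% of all genes were, and limma-voom 7.27% and 9.09%, where 18.55% and 19.5% were. DESeq2 called 27 and 19 of 75 members lower (36.0% and 25.3%), where 16.85% and 16.6% of all genes were. In KO mice the replicate block called 16.4% of members lower, where 18.0% of all genes were. With library size only it was 16.4%, where 11.5% of all genes were. Leaving out single libraries took the share of members below that of all genes in the runs given above. Mean light chain V CPM depended on single libraries, at 236 to 481 in KO ileum and 51.6 to 109 in KO colon when each was left out. The mean lambda share from constant genes was 24.8% in control colon and 8.40% in KO colon. From V genes the mean in KO colon was 14.3% over all segments and 15.8% over segments with at least 10 counts. Iglv1 changed sign over both tissues with the replicate block (-0.12) and without the 2 ileal libraries (-0.03). Leaving out single libraries gave -0.30 to 0.35 over both tissues, -0.07 to 1.36 in ileum and -1.22 to 0.06 in colon. The cause was not tested. Same-numbered libraries had r of -0.06 to 0.30 over genes, not above 0.1 in every pair, so the numbers were not taken to pair them, although 4 of 6 ileal libraries correlated best with their own number. In control mice the block gave 15 calls, 27.3% of members, where 17.6% of all genes were lower. Depth limits the rarer segments, 24 members having under 10 counts in all.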

Other observations

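Kappa V repertoires overlapped only in part between libraries. The overlap of 2 libraries, the summed smaller share of each Igkv gene, was 34.1% to 75.04% over 66 pairs, with a median of 54.2%, and was highest between ileum control 2 and ileum KO 2. Ileal and colonic libraries of 1 genotype with the same replicate number overlapped by 43.1% to 66.8% (6 pairs), and those with other numbers by 42.75% to 65.3% (12 pairs). Heavy chain Ighm, which marks B cells that have not switched isotype as well as IgM plasma cells, was at 25.7 and 35.3 CPM in ileum control 3 and ileum KO 1, the libraries with few muscle transcripts, high B cell genes and little lambda, and at 3.48 to 8.94 CPM in the other 10 libraries. The spread of the lambda share in the 3 KO colon libraries, an SD of 1.23 percentage points, was the smallest of the 4 groups, which had 10.99, 12.03 and 19.7 in the others.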
